A study of Homo sapiens with 4 samples.

Results

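The genes described here encode the machinery that brings proteins into mitochondria and keeps them folded. They were chosen by name, 42 in all, of 19775 genes with a probe set of their own on the array. Of the 42, 40 had at least 1 probe set annotated to them alone and 38 were bright enough to be tested. TOMM6 and TOMM7 share every probe set with another gene, and TOMM40L and TIMM23 lay below the bound for dim genes, the 30th percentile of all gene means. The members fall into the TOM entry gate (9 genes), the TIM translocases (15), the motor and matrix chaperones (8), the proteases (5), and the SAM and MIA assembly factors (5).

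BT474, an established human breast cancer cell line of luminal type with amplified ERBB2, was profiled on an Affymetrix expression array. Vehicle-treated cells were compared with cells given 0.5 mM AICAR, a nucleoside that cells convert to an AMP mimic and that activates the energy sensor AMPK; both groups were kept in DMEM and collected after 24 h, with 2 arrays each. All values are on the log2 scale of the deposited table, and each gene is represented by its probe set with the highest mean. Nothing in the labels says that the duplicates were separate cultures, so the p-values speak only of array-to-array spread, which may be technical.

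Most mitochondrial proteins are made in the cytosol and must be threaded through the outer membrane by the TOM complex. From there, SAM builds beta-barrel proteins into the outer membrane, MIA traps small proteins in the intermembrane space by forming disulfides, and the small TIM chaperones escort hydrophobic carriers to TIM22 in the inner membrane. TIM23 passes proteins with a presequence to the matrix, where an Hsp70 motor pulls them in, a peptidase removes the presequence, HSP60 and HSP10 fold them, and the proteases LONP1 and CLPXP degrade those that fail. Energy-stressed cells are known to adjust mitochondrial content, and AMPK is a known regulator of mitochondrial turnover.

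The arrays had medians of 6.37 to 6.39 and duplicates correlated at r = 0.997 across probe sets, which are not independent replicates. All 8 luminal epithelial markers lay above the dim bound of 6.11, with means of 9.02 to 14.15. The luminal mucin MUC1 fell by 0.47 (limma adjusted p = 0.0223) and the other luminal markers were not called. Of 17 basal, fibroblast, endothelial and blood markers with a probe set, 9 lay above the bound, none with a mean over 7.41, and 0 of those 9 were called (limma; 0 at an unadjusted p under 0.05). The log2 of the summed levels on vehicle and AICAR arrays ran from 8.20 to 8.24 and 8.21 to 8.47 for basal, 8.39 to 8.57 and 8.54 to 8.60 for fibroblast, and 8.88 to 8.94 and 8.90 to 8.91 for endothelial markers. Blood markers gave 7.75 to 7.83 and 7.92 to 7.94; the part of these levels in the results was not tested.

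With AICAR, 3 TIM genes fell and 1 motor cochaperone rose (limma, Benjamini-Hochberg adjusted p under 0.05 over 13842 genes). That is 4 of 38 members, or 10.5%, against 9.82% of all genes tested, so the number of calls was near the background. In the downward direction 3 members stood against a background of 5.19%, and in the upward direction 1 against 4.63%. Over all genes 641 were higher and 718 lower, and after quantile normalization of the deposited values 854 and 625. The number of lower members ranged from 1 without the dim filter to 11 with a variance trend and robust variances, and 0 members passed in either direction without vehicle replicate 1 or without vehicle replicate 2. At an unadjusted p under 0.05, 13 members were lower and 1 was higher, against 1841 and 1775 of all genes. The median difference was -0.09 over the members, of which 26 were negative and 12 positive, and 0.01 over all genes tested, of which 47.6% were negative.

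**Figure D1:**
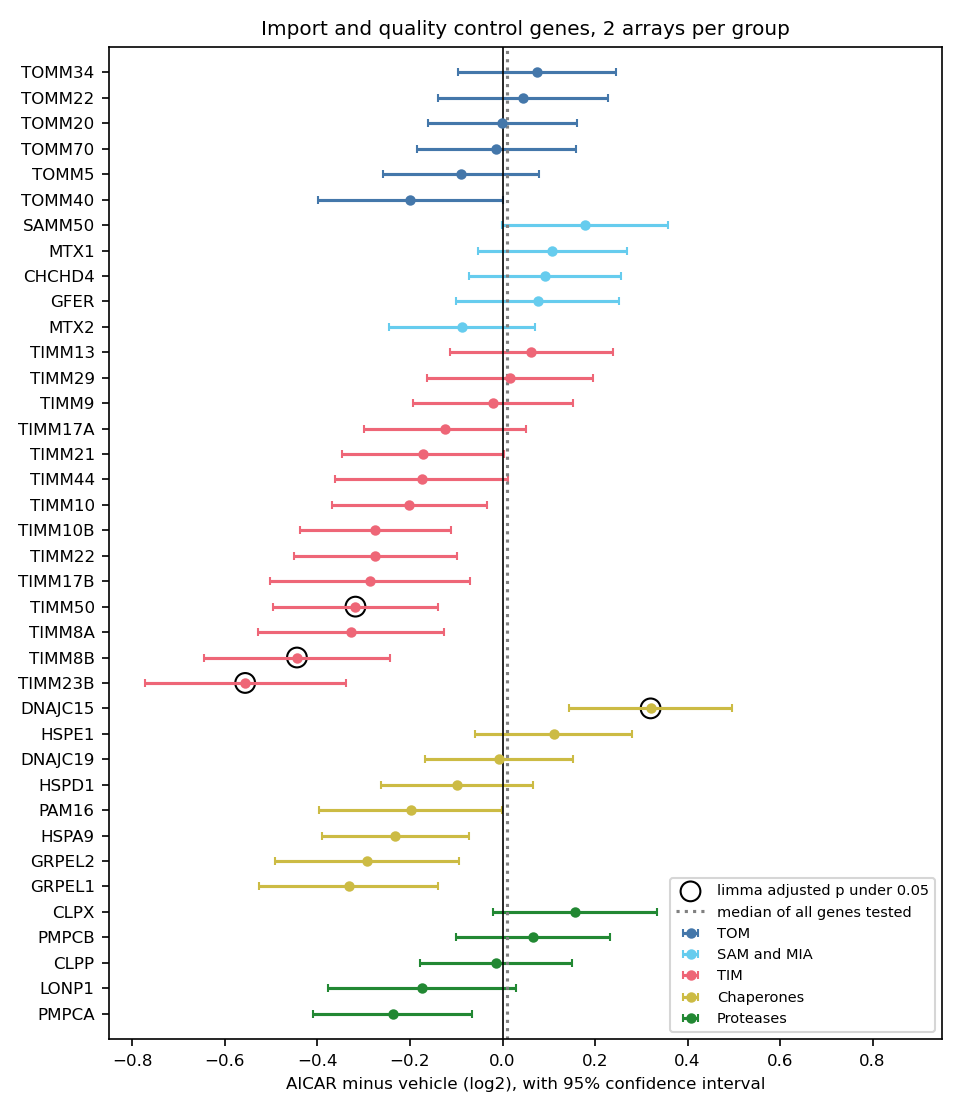
Difference between AICAR and vehicle (log2, x axis) for each of the 38 tested members, with 95% confidence intervals from limma, coloured by group and sorted within it; the dotted line is the median of all genes tested. The 4 circled genes passed the threshold: TIMM23B, TIMM8B and TIMM50 on the left and DNAJC15 on the right.

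The groups of members differed in their medians, and each held few calls. Among the 14 tested TIM genes 0 rose and 3 fell, 21.4% called against 9.82% of all genes tested. At that share, counts this small do not tell the groups apart. At an unadjusted p under 0.05 (limma), 8 of the 14 were lower and 0 higher, against 1841 and 1775 of the 13842 genes tested. The TIM median difference was -0.24, from -0.56 to 0.06. Both AICAR arrays lay below both vehicle arrays in 11 of the 14, against 28.0% of all genes tested, and above them in 0, against 28.5%. The 6 tested TOM genes had a median of -0.0069, with 2 below and 1 above in this sense, and 0 called (0 also at an unadjusted p under 0.05). The 8 chaperones had a median of -0.15, with 5 below and 2 above. Of these 8, 1 rose and 0 fell, 12.5% called against 9.82% of all genes tested. At an unadjusted p under 0.05 (limma), 4 chaperones were lower and 1 higher. The 5 proteases had a median of -0.01, with 2 below and 2 above and 0 called (limma, with 1 lower at an unadjusted p under 0.05). The 5 SAM and MIA genes had the highest median, 0.09, with 1 below and 4 above and 0 called (limma; 0 at an unadjusted p under 0.05). Because the members were chosen with results known, these medians are a description and the groups were not tested against each other.

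**Figure D2:**
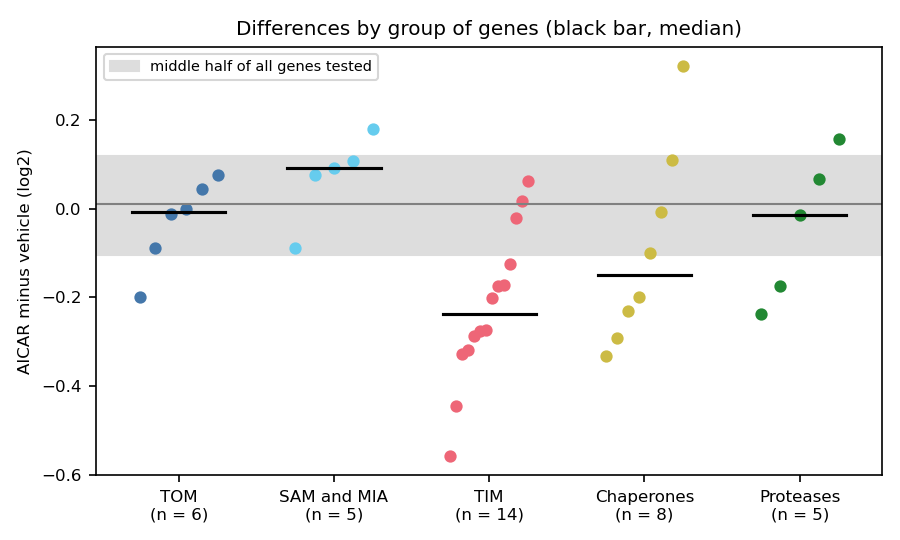
Differences (log2, y axis) of the tested members in 5 groups, each point a gene and each black bar the group median; the grey band runs from the lower to the upper quartile of all genes tested, -0.10 to 0.12, and the grey line is their median. Most points of the TIM column lie under the band, while the TOM points lie in it except that of TOMM40 at -0.20.

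The receptors of the outer membrane gate came first in the order of import, and their transcripts did not pass the threshold. TOMM20, a receptor for presequences, measured 13.47 and 13.43 on the vehicle arrays and 13.46 and 13.44 on the AICAR arrays, a difference of -0.0007 (95% confidence interval -0.16 to 0.16). Its groups overlapped, but its other probe set differed by 0.29. TOMM70, the receptor for carrier proteins, differed by -0.01 (-0.18 to 0.16) and TOMM22, the central receptor, by 0.04 (-0.14 to 0.23). The other probe set of TOMM70 differed by 0.11 and those of TOMM22 by -0.02 and -0.10. The receptor intervals, which hold for the chosen probe sets only, still allow changes of about 0.2 in either direction.

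Of the tested TOM genes, the pore and the small subunit TOMM5 gave the lowest values. TOMM40, the beta-barrel that forms the channel, measured 9.61 and 9.79 with vehicle and 9.49 and 9.51 with AICAR, a difference of -0.20 (-0.40 to 0.00052, limma adjusted p = 0.192). Both AICAR values lay under both vehicle values, although the vehicle arrays themselves were 0.18 apart. TOMM5, a small subunit, differed by -0.09, and TOMM34, a cytosolic cochaperone that binds precursors, was the highest TOM member at 0.07 (10.95 and 10.89 against 11.03 and 10.96, adjusted p = 0.552). Probe sets annotated to TOMM6 together with PRICKLE4 differed by -0.17 and -0.11, and the probe set of TOMM7 together with C4orf46 by 0.24 (12.64 and 12.64 against 12.87 and 12.89). None of these 3 passed in a fit of all probe sets (adjusted p = 0.147 to 0.494), and they cannot be assigned to either gene. The dim member TOMM40L was at 4.77 with vehicle and 4.94 with AICAR.

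SAM and MIA, the assembly routes of the outer membrane and intermembrane space, held small positive differences. SAMM50, the core of the beta-barrel assembly complex, measured 11.27 and 11.14 with vehicle and 11.40 and 11.37 with AICAR, a difference of 0.18 (-0.0014 to 0.36, limma adjusted p = 0.194). Both AICAR arrays lay above both vehicle arrays, as in 28.5% of all genes tested. The 3 other probe sets of SAMM50 were also positive, from 0.01 to 0.22, the lowest being that of a probe set below the dim bound. The SAM partner MTX1 differed by 0.11 and its relative MTX2 by -0.09, the lowest of these 5 genes (10.78 and 10.78 against 10.69 and 10.70, adjusted p = 0.442). CHCHD4, the MIA oxidoreductase, differed by 0.09 and GFER, the sulfhydryl oxidase that recharges it, by 0.08; neither passed.

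The small TIM chaperones of the intermembrane space, which the MIA route brings in, included the second largest fall. TIMM8B measured 11.99 and 12.02 on the vehicle arrays and 11.65 and 11.47 on the AICAR arrays, 1.36-fold lower (log2 -0.44, SE 0.0832, limma adjusted p = 0.0266). The AICAR arrays were 0.18 apart and both stood under the vehicle pair, which adds no support for a gene picked for passing the threshold. Its other probe set, also above the dim bound, differed by only -0.03, and with the mean of both probe sets TIMM8B did not pass (-0.24, adjusted p = 0.0667), nor did it without the dim filter (0.0520). It also missed without vehicle replicate 1 (adjusted p = 0.136), vehicle replicate 2 (0.135) or AICAR replicate 2 (0.0674).

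The relatives of TIMM8B spread widely. TIMM8A, whose loss causes deafness-dystonia syndrome, measured 8.07 and 8.09 with vehicle and 7.84 and 7.66 with AICAR, a difference of -0.33 (-0.53 to -0.13, limma adjusted p = 0.0601), just short of the threshold. TIMM10B differed by -0.27 (adjusted p = 0.0548) and its other probe set by -0.26; TIMM10, which forms hexamers with TIMM9, differed by -0.20 (adjusted p = 0.128) and its other probe set by -0.21. All 3 had AICAR values under both vehicle values, as had 28.0% of all genes tested. TIMM9 differed by -0.02 (-0.19 to 0.15) and TIMM13, the partner of TIMM8A, was the highest TIM member at 0.06 (11.44 and 11.40 against 11.54 and 11.43, adjusted p = 0.634), with overlapping groups in both. In the carrier translocase itself, the channel gene TIMM22 differed by -0.27 (7.90 and 7.85 against 7.65 and 7.54, adjusted p = 0.0668), with all 3 probe sets negative, and its stabilising subunit TIMM29 by 0.02.

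The TIM23 presequence translocase held the other falls. TIMM23B measured 8.97 and 8.77 with vehicle and 8.27 and 8.37 with AICAR, 1.47-fold lower (log2 -0.56, SE 0.0902, limma adjusted p = 0.0194), the largest difference among the tested members. TIMM23B is a near copy of the channel gene TIMM23, so the value is uncertain as to gene: the 3 probe sets annotated to both genes were brighter and differed by -0.07, -0.12 and -0.17, and the probe set annotated to TIMM23 alone was dim, at 4.40 with vehicle and 4.52 with AICAR. The shared probe sets did not pass in a fit of all probe sets (adjusted p = 0.299 to 0.697), whereas that of TIMM23B did (0.0413). Without vehicle replicate 1 (adjusted p = 0.112), vehicle replicate 2 (0.0576) or AICAR replicate 1 (0.0514) TIMM23B missed the threshold, with differences of -0.66 to -0.46.

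TIMM50, the receptor that hands presequences from TOM to the TIM23 channel, measured 10.98 and 10.92 with vehicle and 10.69 and 10.58 with AICAR, 1.25-fold lower (log2 -0.32, SE 0.0744, limma adjusted p = 0.0479). The groups did not overlap, which adds no support for a gene picked for passing the threshold. Its second probe set differed by -0.24. The call sat close to the threshold: it was lost without any 1 of the arrays (adjusted p = 0.252 and 0.165 without vehicle replicates 1 and 2, 0.0541 and 0.121 without AICAR replicates 1 and 2), without the dim filter (0.0931), after quantile normalization (0.0733) and with the mean of its probe sets (0.0781). The other tested subunits were negative and uncalled. TIMM17B, a channel subunit, differed by -0.29 (limma adjusted p = 0.102), with its dimmer probe set at 0.06. Its paralog TIMM17A differed by -0.13, with other probe sets above the bound at -0.12 and -0.41. TIMM21, which links TIM23 to TOM and the respiratory chain, differed by -0.17, and its other probe set by -0.13. TIMM44, which tethers the motor to the channel, differed by -0.17. In all 5 tested TIM23 genes both AICAR arrays lay under both vehicle arrays, as in 28.0% of all genes tested. For TIMM23B, 1 of these 5, the value is uncertain as to gene.

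**Figure D3:**
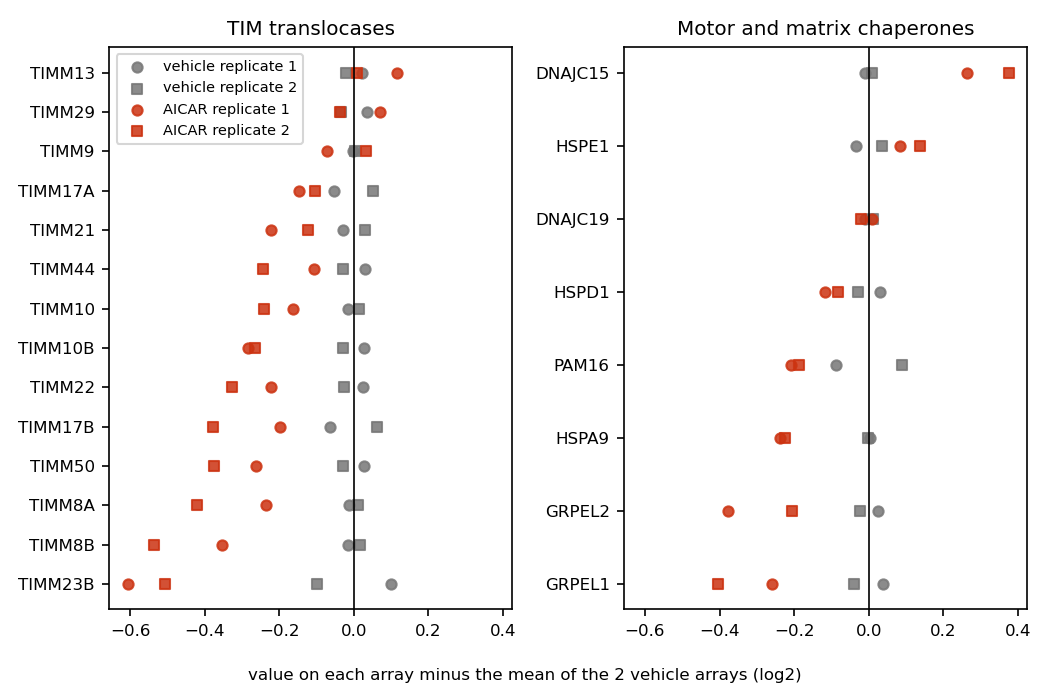
Value on each of the 4 arrays minus the vehicle mean of that gene (log2, x axis) for the 14 tested TIM genes and the 8 chaperones; grey marks vehicle, red AICAR, circles replicate 1 and squares replicate 2. Most red marks lie to the left of the grey ones, except those of TIMM13, TIMM29, TIMM9 and DNAJC19, which overlap, and of HSPE1 and DNAJC15, which lie to the right.

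In the import motor, DNAJC15 was the only member of the 38 that rose. DNAJC15, a J-domain cochaperone of the motor that is also known for lowering respiratory chain activity, measured 11.27 and 11.29 on the vehicle arrays and 11.55 and 11.66 on the AICAR arrays, 1.25-fold higher (log2 0.32, SE 0.0728, limma adjusted p = 0.0447). Both AICAR values were above both vehicle values, as in 28.5% of all genes tested, which adds no support for a gene picked for its call. Its 2 other probe sets, dimmer but above the bound, went the other way at -0.04 and -0.12, and the mean of the 3 differed by 0.05 (adjusted p = 0.650). The call was also lost without the dim filter (0.0880), after median centring (0.0539) and without any 1 array (0.219 and 0.178 without vehicle replicates 1 and 2, 0.0514 and 0.114 without AICAR replicates 1 and 2).

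The other motor parts were at or below their vehicle level. GRPEL1, the nucleotide exchange factor that resets the motor Hsp70, measured 10.40 and 10.32 with vehicle and 10.10 and 9.96 with AICAR, a difference of -0.33 (-0.53 to -0.14, limma adjusted p = 0.0516), which missed the threshold narrowly. Both probe sets of GRPEL1 gave -0.33, and their mean passed (adjusted p = 0.0308). Its paralog GRPEL2 differed by -0.29 (adjusted p = 0.0784; other probe set -0.37). HSPA9, the motor Hsp70 mortalin, measured 13.19 and 13.18 against 12.95 and 12.96, a difference of -0.23 (adjusted p = 0.0795), with duplicates 0.0065 and 0.0135 apart. Its other probe sets above the bound differed by -0.26 and -0.30. PAM16, a J-like regulator of the motor, differed by -0.20 (adjusted p = 0.191), with its vehicle arrays 0.18 apart, and DNAJC19, the J-protein that stimulates HSPA9, by -0.0068 (-0.17 to 0.15).

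The matrix folding pair moved in neither direction beyond the threshold. HSPD1, the HSP60 chaperonin, measured 14.38 and 14.32 with vehicle and 14.23 and 14.27 with AICAR, a difference of -0.10 (-0.26 to 0.07, limma adjusted p = 0.409). The other probe sets of HSPD1 above the bound differed by -0.18, -0.22 and -0.09. HSPE1, its HSP10 lid, measured 12.67 and 12.74 against 12.79 and 12.85, a difference of 0.11 (-0.06 to 0.28, adjusted p = 0.373). The 2 genes thus differed in sign, although their RefSeq starts on GRCh38.p14 lie 105 bases apart on opposite strands. Both confidence intervals include 0.

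Among the proteases, 0 of 5 passed (limma), against 9.82% of all genes tested, and 1 was lower at an unadjusted p under 0.05. PMPCA, a subunit of the peptidase that removes presequences, measured 11.52 and 11.47 with vehicle and 11.30 and 11.21 with AICAR, a difference of -0.24 (-0.41 to -0.07, adjusted p = 0.0928). Its catalytic partner PMPCB differed by 0.07, and its second probe set, whose mean of 6.15 was just above the bound, by 0.41 (adjusted p = 0.137 in a fit of all probe sets). LONP1, the matrix AAA+ protease, differed by -0.17 (9.53 and 9.71 against 9.43 and 9.46, adjusted p = 0.251). CLPX, the unfoldase that feeds the CLPP peptidase, was the highest protease member at 0.16 (10.02 and 10.06 against 10.14 and 10.26, adjusted p = 0.237), while CLPP differed by -0.01 (-0.18 to 0.15).

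**Figure D4:**
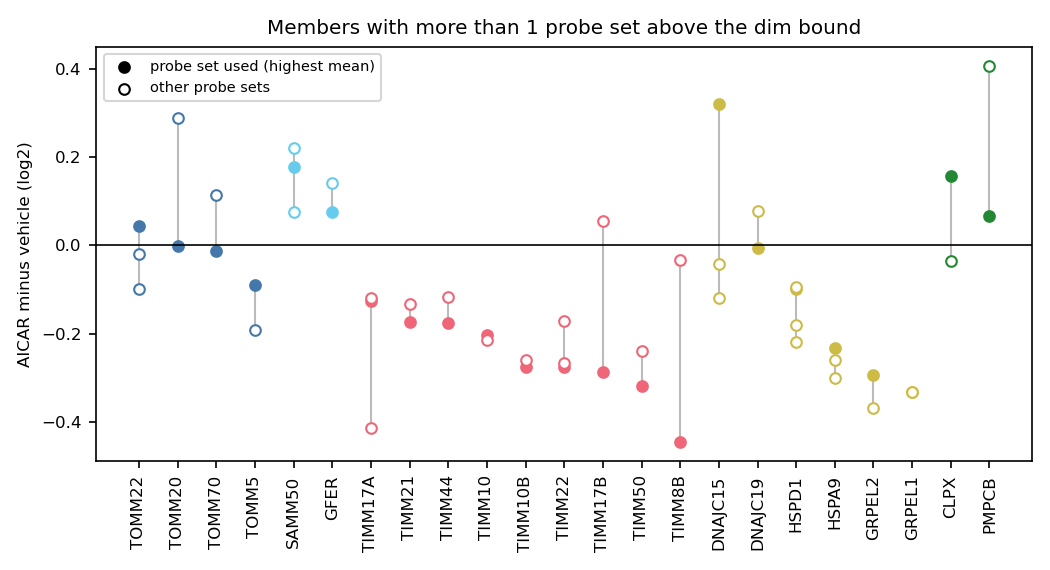
Difference (log2, y axis) of every probe set above the dim bound for the 23 members with more than 1 of them; filled points are the probe sets used and open points the others, joined by a line per gene. In 16 of the 23 all probe sets share a sign, while TOMM20, TOMM22, TOMM70, TIMM17B, DNAJC15, DNAJC19 and CLPX have both signs. DNAJC15, TIMM8B, TIMM17B and PMPCB show wide gaps between probe sets, those of TIMM8B being at -0.44 and, near 0, at -0.03.

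Probe sets that were not chosen had medians of the same sign as the chosen ones in 4 of the 5 groups, the proteases being the exception. Of the 11 unused TIM probe sets above the bound 10 were negative, with a median of -0.17, and of the 10 unused chaperone probe sets 9 were negative, with a median of -0.20. The 5 unused TOM probe sets had a median of -0.02, from -0.19 to 0.29, and the 3 unused SAM and MIA probe sets were positive. The 2 unused protease probe sets were -0.04 (CLPX) and 0.41 (PMPCB), with a median of 0.19, against -0.01 for the chosen ones. Over all 24868 single-symbol probe sets above the bound, 12752 were negative and the median was -0.0050. These probe sets come from the same 4 arrays and are no independent replicate.

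RefSeq promoter windows on GRCh38.p14 (250 bases before to 50 after the start) matched 38 of the 42 members, TIMM8B, TOMM5, CLPP and GRPEL1 being without an entry. Motifs were searched on both strands in the first listed window of each of 27305 genes. The NRF1 site, bound by nuclear respiratory factor 1, was in 11 of 38 member windows (28.9%) against 6.28% of all, and the ETS site CCGGAAGT in 8 (21.1%) against 4.44%. The upstream parts of the member windows were also richer in G and C, with a median of 64.4% against 58%. The estrogen-related receptor element TNAAGGTCA, named for the receptor in the title of the study, was in 0 of 38 against 0.963% of all windows. The element TGATGNAA of C/EBP and ATF factors was in 2 (TIMM22 and PMPCB; 5.26% against 3.67%), and the YY1 site in 2 (TIMM50 and PMPCA; 5.26% against 0.916%). A match is a description of letters, not a bound site. The 10 tested members with an NRF1 match had a median difference of 0.0079 with 0 called (limma; 2 at an unadjusted p under 0.05), and the 24 tested members with a window but no match had -0.15 with 3 called (10 at an unadjusted p under 0.05). The 2 members with a YY1 match had a median of -0.28, with 1 called and 2 at an unadjusted p under 0.05, against -0.05 for the 32 without one, with 2 called and 10. For the ETS site the medians were -0.09 with a match and -0.10 without, and for the C/EBP and ATF element -0.10 and -0.09. Of all genes tested 9.82% were called, and at that share counts this small do not tell members with a match from those without. The YY1 values rest on 2 members. No difference between members with and without a match was tested.

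The bases before the start are printed for a gene that fell, a gene that rose, the TOM receptor whose level differed least, and the gap between the starts of HSPD1 and HSPE1, 5′ to 3′ on the strand of the named gene, with motif matches in capitals. These 4 were chosen after their values and motif matches were seen. TIMM50 lies at chr19:39480588-39480837 (plus strand) and DNAJC15 at chr13:43023336-43023585 (plus strand), and both stretches hold 0 matches. The YY1 match of TIMM50 lies after its start, at 13 to 23 from it, and so outside the printed bases. TOMM20, at chr1:235128838-235129087 (minus strand), has an NRF1 match followed by an ETS match. The gap of 104 bases between HSPD1 and HSPE1, at chr2:197500275-197500378 and shown on the HSPE1 strand, has an NRF1 match that both genes share.
TIMM50: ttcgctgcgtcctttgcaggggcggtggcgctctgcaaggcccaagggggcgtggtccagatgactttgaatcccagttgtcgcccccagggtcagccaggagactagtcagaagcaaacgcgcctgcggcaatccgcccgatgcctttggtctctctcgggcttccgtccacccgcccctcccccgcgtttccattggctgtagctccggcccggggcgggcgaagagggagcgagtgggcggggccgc
DNAJC15: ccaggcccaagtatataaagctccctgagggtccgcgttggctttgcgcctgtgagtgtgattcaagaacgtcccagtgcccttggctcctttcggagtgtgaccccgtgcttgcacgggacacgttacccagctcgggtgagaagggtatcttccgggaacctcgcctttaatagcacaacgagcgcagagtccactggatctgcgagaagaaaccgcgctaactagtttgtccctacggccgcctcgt
TOMM20: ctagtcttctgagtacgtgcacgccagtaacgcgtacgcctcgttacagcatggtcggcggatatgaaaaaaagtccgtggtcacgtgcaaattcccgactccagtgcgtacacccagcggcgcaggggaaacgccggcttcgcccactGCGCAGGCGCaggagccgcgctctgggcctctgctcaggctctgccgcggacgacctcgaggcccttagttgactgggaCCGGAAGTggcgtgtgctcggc
HSPD1-HSPE1 gap: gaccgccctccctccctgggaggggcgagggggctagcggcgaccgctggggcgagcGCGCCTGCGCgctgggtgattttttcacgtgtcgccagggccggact

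Other genes of import and mitochondrial quality control, 49 taken by name from outside the members, showed few calls. Of the 45 tested, 1 rose and 2 fell, 6.67% against the 9.82% of all genes, with a median of -0.03. OMA1, the stress-activated protease of the inner membrane that cleaves OPA1 and DELE1, measured 8.89 and 8.77 with vehicle and 9.20 and 9.37 with AICAR, 1.37-fold higher (log2 0.46, SE 0.0876, limma adjusted p = 0.0280). IMMP1L, a subunit of the inner membrane signal peptidase, measured 9.88 and 9.96 against 9.45 and 9.50, 1.36-fold lower (log2 -0.45, SE 0.0700, adjusted p = 0.0181). The third was HSPA14, which the list placed with matrix chaperones although it is known as a ribosome-associated Hsp70 of the cytosol. HSPA14 measured 10.21 and 10.35 with vehicle and 9.95 and 9.94 with AICAR, 1.26-fold lower (log2 -0.33, limma adjusted p = 0.0454).

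In all 3 genes the groups did not overlap, but they were picked for passing the threshold, so this adds no support. Over all genes tested, both AICAR arrays lay above both vehicle arrays in 28.5% and below them in 28.0%. OMA1 missed the threshold without vehicle replicate 1 (adjusted p = 0.105), vehicle replicate 2 (0.150) or AICAR replicate 2 (0.0781), IMMP1L without vehicle replicate 1 (0.0924) or 2 (0.110), and HSPA14 without any 1 array (0.0936 to 0.224). Without the dim filter OMA1 (0.0543) and HSPA14 (0.0879) also missed, as did HSPA14 after quantile normalization (0.0546) and with its probe sets averaged (0.0839). Of 11 tested mitophagy and stress sensing genes 0 passed (limma), against 9.82% of all genes tested, and their median was 0.10. Without adjustment, p was under 0.05 for 3 higher genes and 1 lower gene. DELE1, which relays mitochondrial stress to the cytosol, differed by 0.24 (adjusted p = 0.0760) and the mitochondrial stress factor ATF5 by -0.23 (adjusted p = 0.103). The other higher genes were PINK1 at 0.18 (limma adjusted p = 0.161) and FUNDC2 at 0.18 (0.155). Of 14 other import, insertion and cristae genes 0 passed, against the same 9.82%, and 2 were lower at an unadjusted p under 0.05. Negative differences numbered 11 of the 14, against 47.6% of all genes tested.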

How the data were processed

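Total RNA of the 4 BT474 samples was hybridised to arrays. The authors deposited log2 expression values per probe set (2.95 to 15.3), made with Affymetrix Expression Console per the submitters' processing notes; the summarization method is not given in the sources used here, and differences of dim probe sets may be compressed. Of 54675 probe sets 62 controls were left out, and 41091 had 1 symbol in the platform annotation, checked through Entrez IDs. Each gene took its probe set of highest mean, and genes under the 30th percentile of gene means (6.11) were dropped, leaving 13842.

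The linear model was that of limma 3.58.1 under R 4.3.3 (lmFit, then eBayes), two-sided, with Benjamini-Hochberg adjustment over all genes tested. The number of arrays limits the precision (median SE 0.0772), and an exact permutation test of 2 against 2 arrays cannot go below p = 0.333, so none was used. The script was tested on simulated data with 200 of 13842 genes changed, fewer than the 1359 called here. It recovered 0.882% of log2 changes of 0.3, 36.7% of 0.5 and 96.4% of 1, so a gene that was not called may still have changed. Members and lists were chosen with earlier results of these data known. Every member is reported; values on each array are given for called members and for the highest and lowest of each group, and for related genes that were called. Genes outside this rule (TOMM20, TIMM8A, TIMM22, HSPA9, HSPD1, HSPE1, LONP1, DELE1, ATF5, PINK1, FUNDC2) were given in detail after their values were seen. Alternatives were other dim filters, quantile normalization, median centring, a variance trend with robust moderation, averaged probe sets, all probe sets separately, a replicate block, and each array left out.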

Additional observations from a re-analysis of the deposited data

How the results depend on the processing

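With 2 arrays a group, calls near the threshold depended on the settings. The 1 higher member became 0 without the dim filter, after median centring, with the mean of all probe sets, with the replicate block and with all probe sets tested separately, and 0 in each fit without 1 array. The 3 lower members became 1 without the dim filter, 10 with the filter at the 50th percentile, 5 after median centring, 11 with a trend and robust variances and 1 with all probe sets tested separately, and 0 to 3 without 1 array. Over all genes the 641 higher calls were 368 without the dim filter, 1107 with a trend and robust variances and 69 to 553 without 1 array, and the 718 lower calls were 355, 1359 and 30 to 432. Among related genes the 1 higher call became 0 without the dim filter, 2 with the filter at the 50th percentile, 2 after quantile normalization, 2 with a trend and 0 to 1 without 1 array. The 2 lower calls became 1 without the dim filter, 1 after quantile normalization, 5 with a trend, 1 with the mean of all probe sets, 1 with the replicate block and 0 to 2 without 1 array. Fewer arrays, or more or fewer genes tested, account for part of this by construction; for the rest the cause was not tested.

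With probe sets averaged, the TIM median was -0.16, and it ran from -0.25 to -0.21 without 1 array; the chaperone median was -0.17 and ran from -0.16 to -0.12. The TOM and protease medians moved by less than the spread between arrays. Negative members numbered 26 in the main setting, 21 after quantile normalization, and 24 to 26 in the others. The 4 called members kept their sign in the 11 settings with 1 value a gene, but most of these could not change it. Other dim filters, a trend with robust variances and the replicate block leave the difference itself as it was. Leaving out 1 array cannot reverse the sign of groups that do not overlap. Only the normalizations and the averaging of probe sets could have changed a sign. With all probe sets taken separately, TIMM8B and TIMM50 were negative in both of theirs, while DNAJC15 was positive in 1 of 3, the others being -0.04 and -0.12.

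Some uncalled differences near 0 changed sign. After quantile normalization TOMM20 was 0.0066, TOMM70 0.00795, TIMM9 0.0107, DNAJC19 0.0243 and CLPP 0.0230. With probe sets averaged TOMM20 was 0.144, TOMM22 -0.0246, TOMM70 0.0503 and DNAJC19 0.0354. Without 1 array TOMM20 ranged from -0.0207 to 0.0193, TOMM22 from -0.0240 to 0.112, TOMM70 from -0.0595 to 0.0333, TIMM9 from -0.0725 to 0.0324, TIMM29 from -0.0370 to 0.0698, DNAJC19 from -0.0213 to 0.0077 and CLPP from -0.0481 to 0.0195.

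The replicate numbers do not by themselves pair the arrays: the gaps between replicates 1 and 2 of the groups correlated at -0.07 across genes. With the replicate number as a block the fit called 577 higher and 586 lower genes, of the members TIMM23B (adjusted p = 0.0209) and TIMM8B (0.0302) passed, and TIMM50 (0.0591) and DNAJC15 (0.0605) did not. Of the 3 related genes called, HSPA14 (0.0596) was lost with the block and OMA1 (0.0349) and IMMP1L (0.0221) passed.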
